A study of Mus musculus with 128 samples.

Results

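Merging the peaks of 22 ATAC-seq libraries of mouse fetal hepatocytes gave 98399 regions, of which 10550 (10.7%) were overlapped by a peak in every library. These 10550 regions, called members here, are the chromatin that every library listed as open, whatever its genotype, stage or treatment. Peaks that shared at least 1 base were joined into a region, and a library counted for a region when at least 1 of its peaks lay in it. The members were thus selected on the peak calls, so that the counts, widths and peak scores below are descriptions with no test. The RNA libraries and the promoter sequences were not used to choose them.

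The series studies PAR3, encoded by Pard3, a scaffold protein of epithelial cell polarity, in the growth and maturation of liver cells. The ATAC-seq libraries are labelled as hepatocytes of C57BL/6 mice, and the submitters' protocol gives 1000 cells per library. At E17.5 (embryonic day), 4 untreated groups had 3 libraries each. Those labelled Pard3WT and YapWT carried Foxa3-Cre alone, those labelled Pard3HMKO carried Foxa3-Cre with Pard3-fl/fl, and those labelled YapHMKO carried Foxa3-Cre with Yap-fl/fl. Another 5 groups of 2 libraries came from E15.5 livers held in culture for 2 days: Pard3WT with the control treatment, PD or TPPB, and Pard3HMKO with the control treatment or PD. Every one of these groups, controls included, carried the Cre named for Foxa3, a transcription factor gene of the endoderm and liver. The labels do not spell out the agents PD and TPPB. Matching single-cell RNA libraries, 2 per group, gave 350 cells at E17.5 and 211 cells in culture. Their reads were summed per library. No label says that replicates came from separate animals or cultures, so the spread between libraries may be technical. The p-values measure the spread over all libraries of a fit, which also held other RNA libraries. In vivo these were Foxa3-Cre libraries of other ages from E11.5 to P14 and, at E17.5, AlfpCre libraries and Pard3HMKO YapHMKO libraries with controls. In culture they were Pard3 groups with U0126 or with TPPB plus PD, and groups labelled YapWT and YapHMKO.

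ATAC-seq reads where a transposase can insert adapters into DNA that is not wrapped tightly in nucleosomes. Promoters of genes that nearly every cell uses commonly lie in CpG islands, stretches rich in CG dinucleotides, and remain accessible in many cell types, bound by factors such as SP1 at GC boxes and NF-Y at CCAAT boxes. Enhancers and promoters of tissue-specific genes open in fewer cell types, and in the liver many of them are bound by HNF4A, FOXA and CEBP factors.

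The promoters below show the range of sequence at the starts held by members and at 1 start outside the rule. Each runs from 250 bases before to 50 bases after the start of the gene, 5′ to 3′ on the gene's strand, from RefSeq with build GRCm38.p6. Capitals mark matches, on either strand, to the GC box (GGGCGG), the CCAAT box (CCAAT), the TATA box (TATAAA) and the cyclic AMP response element or CRE (TGACGTCA). Khsrp (chr17:57031458-57031757, minus strand) and Osbp (chr19:11965594-11965893, plus strand) are shown because their members had some of the highest peak scores, Fos (chr12:85473640-85473939, plus strand) and Dusp1 (chr17:26508423-26508722, minus strand) because their members were among the 4 widest, and Hnf4a (chr2:163506607-163506906, plus strand) and Fgb (chr3:83049814-83050113, minus strand) because they are liver genes with a member. Alb (chr5:90460620-90460919, plus strand) is shown for contrast: it encodes albumin, and its region had a peak in 18 libraries only.
Khsrp: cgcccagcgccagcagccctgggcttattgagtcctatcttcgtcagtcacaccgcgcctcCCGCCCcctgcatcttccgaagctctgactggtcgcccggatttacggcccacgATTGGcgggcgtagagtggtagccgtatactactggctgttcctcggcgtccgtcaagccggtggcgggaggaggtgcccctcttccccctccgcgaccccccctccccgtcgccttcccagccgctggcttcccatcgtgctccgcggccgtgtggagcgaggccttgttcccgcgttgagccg
Osbp: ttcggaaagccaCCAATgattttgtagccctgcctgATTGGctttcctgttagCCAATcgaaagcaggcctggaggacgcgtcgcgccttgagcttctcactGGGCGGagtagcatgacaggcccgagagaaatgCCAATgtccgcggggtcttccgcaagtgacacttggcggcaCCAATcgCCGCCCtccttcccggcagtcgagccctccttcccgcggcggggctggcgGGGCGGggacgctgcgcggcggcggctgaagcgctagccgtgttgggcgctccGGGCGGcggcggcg
Fos: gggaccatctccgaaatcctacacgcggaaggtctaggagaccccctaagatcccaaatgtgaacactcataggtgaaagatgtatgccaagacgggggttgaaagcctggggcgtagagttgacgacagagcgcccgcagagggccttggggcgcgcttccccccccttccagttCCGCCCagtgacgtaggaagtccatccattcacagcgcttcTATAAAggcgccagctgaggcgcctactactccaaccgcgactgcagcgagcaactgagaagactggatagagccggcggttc
Dusp1: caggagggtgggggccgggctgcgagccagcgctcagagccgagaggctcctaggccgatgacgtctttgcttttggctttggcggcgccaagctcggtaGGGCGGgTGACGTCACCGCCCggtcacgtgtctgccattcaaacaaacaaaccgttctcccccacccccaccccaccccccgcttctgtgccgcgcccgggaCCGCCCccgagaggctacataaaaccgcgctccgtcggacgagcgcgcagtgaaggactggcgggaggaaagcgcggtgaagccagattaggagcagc
Hnf4a: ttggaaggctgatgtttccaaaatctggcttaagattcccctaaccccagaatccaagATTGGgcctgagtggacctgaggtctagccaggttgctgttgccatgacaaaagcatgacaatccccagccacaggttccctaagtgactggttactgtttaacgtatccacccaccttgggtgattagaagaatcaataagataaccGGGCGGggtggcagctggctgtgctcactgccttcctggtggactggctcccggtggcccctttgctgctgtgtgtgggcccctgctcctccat
Fgb: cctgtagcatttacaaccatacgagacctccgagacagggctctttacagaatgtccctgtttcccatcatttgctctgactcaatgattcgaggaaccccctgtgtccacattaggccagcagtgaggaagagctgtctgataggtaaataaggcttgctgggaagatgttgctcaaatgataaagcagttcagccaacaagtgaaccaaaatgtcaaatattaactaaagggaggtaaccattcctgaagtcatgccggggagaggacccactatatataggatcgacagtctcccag
Alb: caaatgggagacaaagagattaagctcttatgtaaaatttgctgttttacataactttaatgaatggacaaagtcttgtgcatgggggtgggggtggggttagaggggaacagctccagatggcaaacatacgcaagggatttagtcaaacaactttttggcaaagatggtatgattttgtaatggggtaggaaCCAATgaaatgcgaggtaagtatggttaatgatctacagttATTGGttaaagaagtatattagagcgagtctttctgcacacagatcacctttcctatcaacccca
The Osbp promoter held 34 CG dinucleotides, 4 GC boxes and 5 CCAAT boxes. The Khsrp promoter held 32 CG dinucleotides with 1 GC box and 1 CCAAT box, and the Dusp1 promoter 31 with 3 GC boxes and 1 CRE. The Fos promoter had 20, with 1 GC box and a TATA box. The liver promoters were poorer in CG: Hnf4a had 4, Fgb 5 and Alb 3, and Fgb held none of the 4 motifs.

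Members were numerous and wide. A peak in 1 library only was found for 24906 regions and a peak in 21 for 1865 regions, set against 10550 with a peak in all 22. Members were 1206 bp wide at the median (quartiles 952.25 and 1535, range 441 to 8384), regions in 21 libraries 885 bp and all regions 429 bp. Merging more libraries widens a region by construction: in a single library the peaks covered 44.6% to 83.9% of a member at the median. The members took up 13.7 Mb of the 53.8 Mb in all regions. By chromosome, between 8.94% (chromosome 18) and 12.9% (chromosome 7) of autosomal and X-linked regions were members, and 0 of the 15 regions on Y were.

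The rule has a threshold, and some members passed it narrowly. The score of a peak is the authors' own value, used here only within its own list, and it was at least 50 in each. A member's lowest score over the 22 libraries had a median of 119.515, and 1096 members (10.4%) had a lowest score under 60. Regions with a peak in 21 libraries had a median score of 134.92 and a lowest score of 59.81 at the median, against a median of 246.363 in members. When only 1 library lacked a peak, it was most often Pard3WT PD replicate 1 (328 regions), Pard3WT TPPB replicate 1 (323), Pard3HMKO control replicate 1 (273) or Pard3HMKO PD replicate 1 (191). Those 4 cultures also had the fewest peaks, 24270 to 26543 in a series that ranged up to 45898. In all 5 culture groups replicate 1 had fewer peaks than replicate 2 (35879 and 45898, 24270 and 27525, and 26543 and 34216 in Pard3WT control, PD and TPPB, 26293 and 35301, and 24330 and 31877 in Pard3HMKO control and PD). The labels do not say what the number marks. Leaving out any 1 library gave 10554 to 10877 members. Among the highest-scoring regions just outside the rule, one near B230307C23Rik lacked a peak in Pard3WT replicate 2 at E17.5, one in Cdc42bpb, which encodes a kinase effector of CDC42, lacked it in Pard3WT replicate 1 at E17.5, and one in Dbx1, a homeobox gene, lacked it in Pard3WT TPPB replicate 1.

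Most members lay at gene starts. Of the 10550 members, 7749 (73.5%, exact 95% binomial interval 72.6% to 74.3%) overlapped the 1 kb to either side of an annotated start of a protein-coding gene, against 16.49% of all regions and 9.65% of the regions that lacked a peak in some library. The interval covers counting error only. Starts of 6463 of them came from the strand-aware promoter table, and 1286 (12.2%) rested on either end of a gene span because the table gave no start. The share at a start was 6.71% among regions in 1 library, 11.01% among those in 12, 30.9% among those in 20 and 41.4% among those in 21. The members at starts were wider than those away from starts, 1290 against 954 bp at the median. Of the 2801 members away from starts, 1468 (52.4%) lay inside a gene, and their median distance to the nearest start was 19697 bp (quartiles 7775 and 48966).

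**Figure D1:**
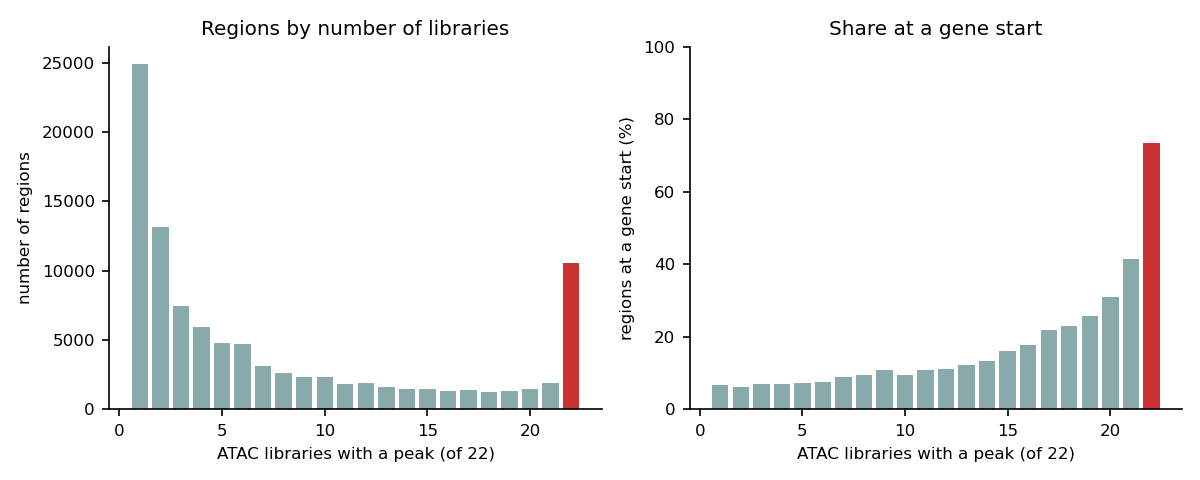
Number of merged regions (left) and share of them within 1 kb of a protein-coding gene start in percent (right) against the number of ATAC libraries with a peak in the region. The red bars are the 10550 regions with a peak in all 22 libraries, of which 73.5% lay at a start, against 41.4% of the regions in 21.

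Counted by gene, 8621 of 21887 protein-coding genes (39.4%) had a member at the start, and 34.6% had no region there. Most members at starts served 1 gene (6707), and 1042 lay at the starts of 2 or more. Of the members with a start from the strand-aware table, 611 of 6463 (9.45%) covered starts of 2 genes that point away from each other, against 115 of 6249 (1.84%) among regions with such a start that lacked a peak in some library. Members are wider than the other regions, which alone lets them reach more starts.

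The members were also ranked by score. Each library's scores were ranked as percentiles among all of its own peaks. A member took the highest of its peaks in each library, and the median over the 22 libraries was taken for each member. The highest, 99.999, belonged to the member at chr17:57031184-57032567, which holds the start of Khsrp (a KH-domain protein of splicing and RNA decay) and lies by Slc25a41 (a mitochondrial carrier). The other 9 of the 10 highest at starts had medians of at least 99.94. They lay at Dnpep (an aspartyl aminopeptidase; chr1:75316405-75318329), Zfp78 (a zinc finger protein; chr7:6362128-6363802), Osbp (the oxysterol-binding protein; chr19:11964770-11966066), Evi5l (a Rab GTPase-activating protein; chr8:4165631-4166896) and Cic (the repressor capicua, a target of ERK signalling; chr7:25267083-25268898). The rest lay at Ripk2 (a kinase of NOD receptor signalling; chr4:16162852-16164518), Ap2a1 (a subunit of the clathrin adaptor AP-2; chr7:44928924-44930308), Tbl2 (chr5:135148602-135150147) and Rab40c (a small GTPase; chr17:25919174-25920931). Coordinates are of build mm10, as in the peak lists.

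Members over 10 kb from every protein-coding start numbered 1925 (18.2%), and some scored as high as promoters. The 6 highest had median percentiles of 99.2 to 99.98. The top one lay inside Zbtb20, which encodes a repressor of fetal liver genes such as Afp, 370325 bp from its start (chr16:42874446-42876959). The others were nearest to Wnt7b, a Wnt ligand (52343 bp; chr15:85634164-85635452), Shcbp1, an SHC-binding protein (56909 bp; chr8:4677095-4679067), Mier3, a chromatin factor (38604 bp; chr13:111724782-111726289), Tead4, a partner of YAP on DNA (25656 bp; chr6:128199966-128201487) and Cct8l1, a chaperonin-like gene (12977 bp; chr5:25529044-25530618). The nearest gene is given for position only.

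Width and score did not select the same members. The 4 widest lay at Fos, Egr1, Ahsg and Dusp1, that is, at 2 immediate-early transcription factors, the plasma protein fetuin-A and a phosphatase that switches off MAP kinases. The Fos member (chr12:85471714-85480097, 8384 bp) had score percentiles of 46.2 to 82.5 over the 12 E17.5 libraries (median 70.9) and 24.9 to 70.0 over the 10 cultures (median 57.5). The Egr1 member (8101 bp) ran from 65.3 to 87.1 (median 76.5) at E17.5 and from 51.2 to 90.9 (median 84.1) in culture. The Dusp1 member (chr17:26502773-26509919, 7147 bp) ran from 73.5 to 89.8 (median 84.8) at E17.5 and from 11.7, in Pard3WT control replicate 2, to 88.3 (median 80.9) in culture. The Ahsg member (chr16:22895102-22902460, 7359 bp) lay inside the gene, 3087 bp from its start, with medians of 69.6 at E17.5 and 72.0 in culture. Over all 22 libraries the medians were 64.0 for Fos, 78.3 for Egr1, 71.1 for Ahsg and 83.7 for Dusp1, while the median member had 83.26, so that only Dusp1 of these 4 reached it.

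The genes whose deletion the study concerns stood on both sides of the rule. The Yap1 region (chr9:8003071-8004220) was a member, 376 bp from the start, with percentiles of 36.6 to 74.9 (median 67.5) at E17.5 and 57.8 to 86.5 (median 80.8) in culture. Yap1 encodes YAP, the transcriptional effector of Hippo signalling. The Pard3 start region (chr8:127063223-127065401) had a peak in 21 libraries and none listed in Pard3WT replicate 3 at E17.5. Its percentiles in the other E17.5 libraries began at 1.85 and reached 72.9, and those in culture were 48.8 to 82.7. Of the hallmark fetal liver proteins, the Alb start region (chr5:90460498-90461277) had a peak in 18 libraries and that of Afp, alpha-fetoprotein (chr5:90490558-90490872), in 2.

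Within every library members sat near the top of the peak list. The median percentile of the members' scores was 83.3 to 87.3 in the 12 E17.5 libraries and 75.4 to 88.0 in the 10 cultures. By group the mean was 86.0 ± 1.31 in Pard3WT, 86.0 ± 0.522 in Pard3HMKO, 85.0 ± 1.62 in YapWT and 84.4 ± 0.547 in YapHMKO (SD, n = 3 each). In culture it was 86.4 ± 2.38 in Pard3WT control, 77.0 ± 2.36 with PD, 79.25 ± 3.799 with TPPB, 80.3 ± 4.38 in Pard3HMKO control and 79.5 ± 4.10 with PD (SD, n = 2 each). Peak lists differed in length, and a percentile in a shorter list is not on the same scale as one in a longer list, so these means show where members sat in each list and no change between groups. Between 91.8% and 98.6% of the peaks in the top 10% of each library's list lay in members, while members held 24.3% to 47.5% of all its peaks. In all 22 libraries the members at starts had the higher median, 77.0 to 90.2 against 65.7 to 81.2 away from starts, a gap of 6.68 to 14.2 points. A member took its highest peak in each library, so a member with several peaks could rank higher by construction. Up to 13532 peaks of a library lay in the 10550 members, and members at starts were wider (1290 against 954 bp). The part of this in the percentiles and in the gap was not tested.

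**Figure D2:**
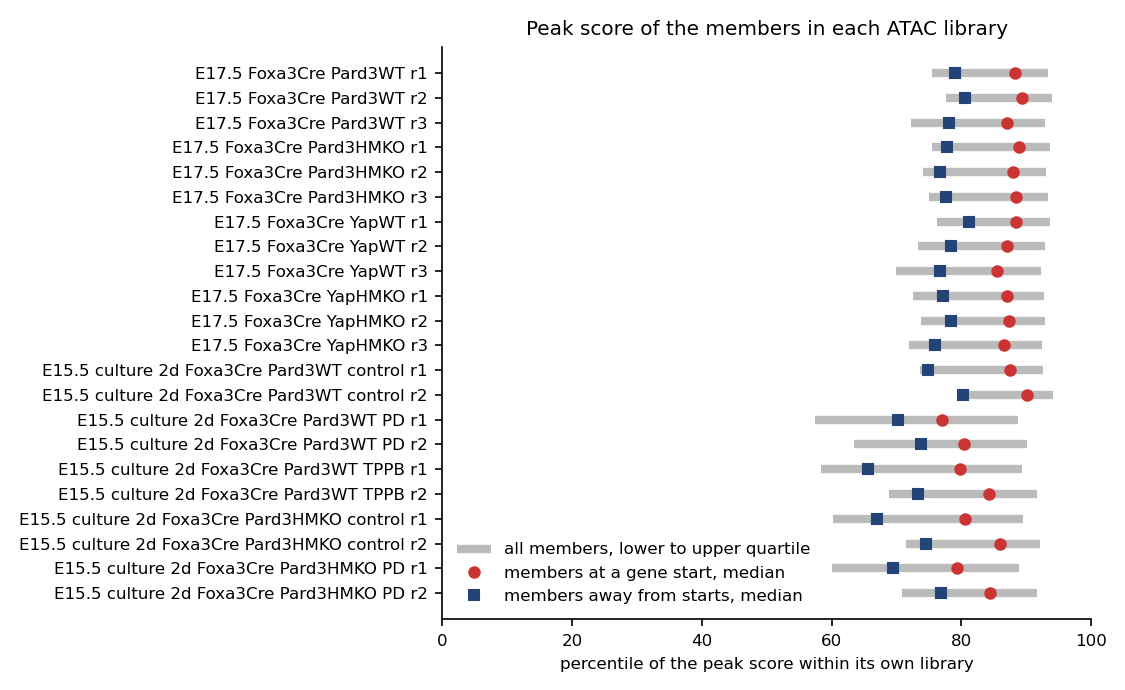
Percentile of the members' highest peak scores within each of the 22 ATAC libraries, one row per library. The grey bar spans the lower to upper quartile of all members. The red circle is the median of members at a gene start and the blue square the median of members away from starts. The circle lies to the right of the square in every library, by 6.68 to 14.2 points.

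The order of the members by score was similar between libraries of a group and less so between E17.5 libraries and cultures. As a description over the 10550 members, with libraries that share peak caller and base composition, Spearman's rho was 0.846 to 0.901 in the 17 pairs of the same group and 0.756 to 0.897 in the 54 E17.5 pairs of different groups. It was 0.699 to 0.884 in the 40 culture pairs of different groups and 0.611 to 0.777 in the 120 pairs of an E17.5 library with a culture. Stage, culture and the mix of genotypes and agents cannot be told apart here.

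A small set of members changed places between the E17.5 libraries and the cultures. When members were ranked among themselves in each library, 96 (0.91% of members) ranked higher in all 10 cultures than in any of the 12 E17.5 libraries, and 98 (0.929%) ranked lower. Of those higher in culture, 35 (36.5%) lay at starts, and of those lower, 74 (75.5%). A member 70707 bp from the start of Trib1, a pseudokinase that guides C/EBP degradation, had rank percentiles of 0.06 to 30.7 (median 8.05) at E17.5 and 66.5 to 89.97 (median 78.2) in culture. One 28614 bp from Ccng2, a cyclin of cell cycle arrest, went from 0.09 to 12.0 (median 3.77) to 21.4 to 88.6 (median 73.6). One 55874 bp from Hlx, a homeobox gene needed for fetal liver growth, went from 6.68 to 50.7 (median 24.0) to 85.3 to 98.4 (median 95.2). The one nearest to Tmc1, a hair cell channel gene, 151804 bp away, went from 0.06 to 15.1 (median 3.73) to 51.3 to 89.3 (median 76.9). All 4 of these lie far from a start.

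Those that ranked lower in culture included starts. The member at the start of Tbl1xr1, a subunit of the NCoR corepressor complex, had rank percentiles of 69.6 to 93.8 (median 81.9) at E17.5 and 5.17 to 54.9 (median 17.6) in culture. At Shld1, a shieldin subunit of DNA repair, they were 58.8 to 80.6 (median 67.5) and 4.87 to 43.3 (median 14.0), and at Elovl7, a fatty acid elongase, 55.6 to 89.3 (median 71.6) and 7.23 to 45.2 (median 20.0). A member 40838 bp from Slc35f5 went from 74.8 to 91.2 (median 86.5) to 10.0 to 66.5 (median 35.3). The groups did not overlap in these cases by the way they were picked.

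Genes of the basic machinery of the cell had members at 69.0% to 100% of their starts, depending on the list. Each count here is read against the 39.4% of all protein-coding genes with a member. All 31 proteasome genes had one, with a median score percentile of 87.7, for example Psmd8 (96.6), Psma5 (94.3), Psmc4 (93.9) and Psmd3 (93.7). Of the RNA polymerase II machinery 29 of 34 had one, including Polr2a, the largest subunit (96.5), the Mediator subunit Med23 (96.3), Taf1 of TFIID (94.6) and Polr2h (93.6). Members lay at 61 of 78 cytosolic ribosomal protein genes, led by Rps19 (99.7), Rpl37 (98.9998), Rpl27 (95.8) and Rpl27a (95.3), with a median of 79.9. The count was 21 of 29 for splicing, led by Snrpd2 (98.7), Snrpa (98.3), Hnrnpk (96.5) and Snrpd3 (96.0), and 29 of 42 for nuclear genes of oxidative phosphorylation, led by Uqcrq (99.5), Ndufv1 (97.4), Cox8a (97.3) and Ndufv2 (94.4). Exceptions had peaks in fewer libraries: the start of Rpl3 in 12, Rpl4 in 19 and Ndufa1 in 21, and no peak was listed at Ndufa6. Psmd3, Med23, Uqcrq and the starts of Gins2, Ccna2, Tbx3, Ttr, Cyp39a1, Stk3 and Phlda1 named below rest on either end of the gene span. So do, among genes without a member, Rpl3 and the starts of Mcm4, Aurkb, Ccn2, Cps1 and Trf named below.

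Cell cycle genes were as broadly covered. Members lay at 22 of 24 mitosis genes, led by the checkpoint protein Mad2l1 (99.4), cyclin A2 or Ccna2 (98.3), the centromere protein Cenpf (98.1) and Ube2c, an enzyme of the anaphase-promoting complex (95.6). They lay at 22 of 26 genes of DNA replication and S phase, led by Gins2 of the replicative helicase (99.9), DNA ligase Lig1 (97.2), Mcm3 of the helicase ring (96.3) and cyclin E1 or Ccne1 (96.2). Tk1 had a peak in 18 libraries and Aurkb in 21, and no peak was listed at the starts of Mcm4, Pcna and Aurka.

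Genes of cell architecture and signalling followed. Of the apical junction and polarity genes 30 of 36 had a member, led by Nectin2, an adhesion receptor (98.4), plakoglobin or Jup (97.5), the kinase LKB1 or Stk11 (97.3) and Tjp3 of tight junctions (97.0). For the Hippo pathway with TEAD factors it was 16 of 22, led by Nf2 (98.8), the MST kinase Stk3 (98.5), Mob1a (94.6) and Wwtr1, which encodes TAZ (94.0). The YAP target genes, 9 of 22, were near the share of all genes. They were led by Birc2 (98.1) and Gadd45a (96.8), while Ccn1 had a peak in 21 libraries, Ccn2 in 15 and Ankrd1 in 12. Immediate-early and AP-1 genes counted 16 of 22, led by Klf2 (95.8), Klf6 (92.4), Atf3 (88.8) and Ier5 (87.9). Of the ERK feedback genes 9 of 14 had a member, led by Etv5 (98.0), Phlda1 (86.8), Dusp6 (85.6) and Dusp5 (81.7).

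Lists of liver genes lay on both sides of the 39.4%. The core hepatocyte transcription factors had members at 12 of 25 starts, led by Tbx3 (95.7), Ppara (89.3), Foxa3 (86.0) and Xbp1 (83.4), while Cebpb had a peak in 20 libraries and Foxa1 in 15. Gluconeogenesis and urea cycle genes counted 10 of 19, led by malate dehydrogenase Mdh1 (99.7), pyruvate carboxylase Pcx (99.4), the glucose-6-phosphate carrier Slc37a4 (98.5) and Got1 (95.4), while Fbp1 had a peak in 21 libraries, G6pc in 15 and Cps1 in 14. Secreted plasma proteins counted 8 of 25, led by Apoa2 (92.7), transthyretin or Ttr (82.5), Serpina1b (78.3) and Fetub (77.8), with another 12 in 12 to 21 libraries, Trf and Apoa1 in 21 among them. Complement and coagulation genes counted 6 of 28, with Fga (71.9), Vtn (70.3), Fgg (67.6) and Fgb (60.2) leading and another 18, C3 among them, in 12 to 21 libraries. Of the cytochromes P450 4 of 26 had a member: Cyp39a1 (91.9), Cyp4v3 (76.7), Cyp27a1 (70.0) and Cyp3a13 (61.7).

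Markers of other cell types, of the liver and of other organs, were nearly without members. The count was 0 of 16 endothelial, 0 of 15 stellate and fibroblast, 0 of 12 cholangiocyte, 0 of 21 neuron and 0 of 21 heart and skeletal muscle markers. It was 2 of 16 erythroid markers, Klf1 and Nfe2, and 1 of 19 macrophage and myeloid markers, Spi1, which encodes the blood factor PU.1. The Nfe2 and Spi1 members rest on either end of the gene span. Starts of some markers were still open in many libraries: Col1a1 and Epcam had peaks in 20, Sox9 in 17, Snap25 in 15 and Kdr in 14. Of these, Col1a1, Sox9 and Snap25 were also placed by either end of the gene span.

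**Figure D3:**
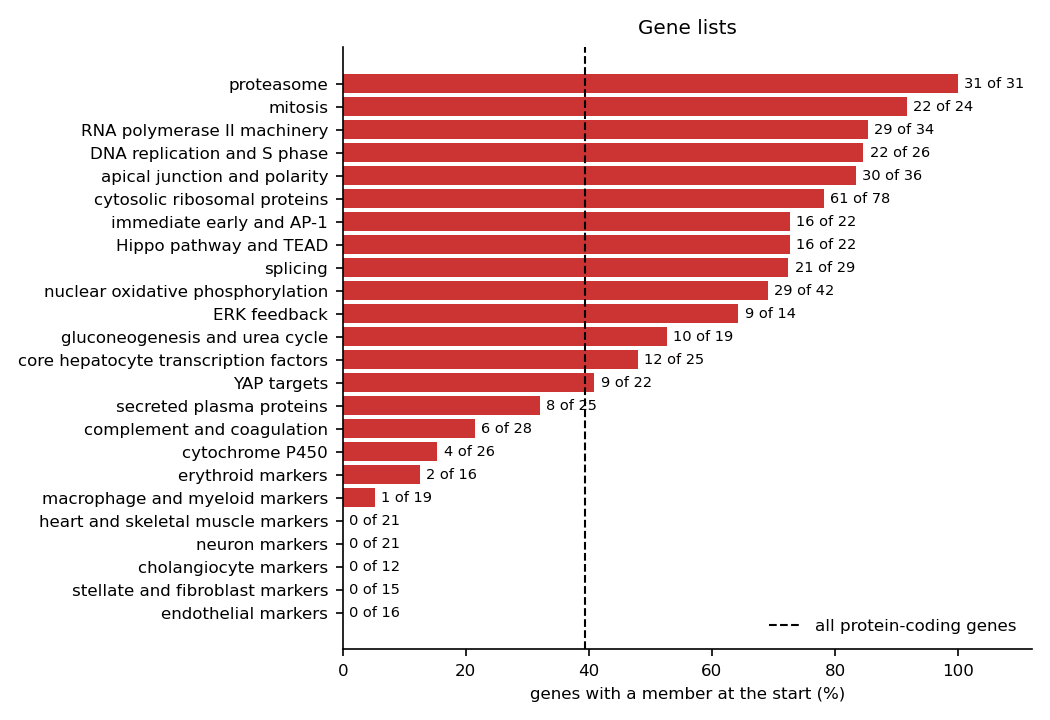
Share of the genes of each list with a member within 1 kb of the start, in percent, with the count beside each bar. The dashed line is the 39.4% of all protein-coding genes. The bars run from 31 of 31 proteasome genes to 0 of 16 endothelial markers.

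The promoters held by members were rich in CG. The RefSeq table matched 8030 promoters, of 6934 genes, whose start base lay in a member, among 21263 promoters of the same 300 bases in all. Their GC content had a median of 62.3% against 56.3% over all promoters. The ratio of observed to expected CG dinucleotides was 0.807 at the median, against 0.567 over all, 0.692 for starts in regions of 12 to 21 libraries, 0.487 for 1 to 11 libraries and 0.218 for the 8979 starts in no region. A ratio of at least 0.6 was reached by 82.7% of member promoters and by 47.7% of all. Read the other way, the start lay in a member for 6640 of 10137 promoters (65.5%) with a ratio of at least 0.6, for 1302 of 6431 (20.2%) with a ratio from 0.2 to 0.6 and for 88 of 4695 (1.87%) below 0.2. The Khsrp and Osbp promoters printed above belong to the first class, Fgb and Alb to the second and Hnf4a to the third.

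GC boxes and ETS cores were more frequent in member promoters than over all promoters, and TATA boxes were less frequent. On either strand, 71.6% of member promoters held a GC box, against 46.2% of all promoters, and 22.1% held the ETS core CCGGAAG, against 11.6%. NRF1 sites (GCGCATGCG) were in 4.41% against 2.35%, CREs in 3.85% against 2.23%, the ZNF143 core in 3.14% against 1.46%, E-boxes (CACGTG) in 10.9% against 7.84% and YY1 sites (AAGATGG) in 7.75% against 6.24%. CCAAT was in 41.8% against 38.2%, without an order by breadth: it was in 31.3% for starts in regions of 12 to 21 libraries, 33.0% for 1 to 11 and 37.9% for no region. The TATA box was rarer, 5.53% against 12.6%, and reached 20.8% among starts in no region. AP-1 sites (TGANTCA) were in 4.01% against 6.99%, TEAD sites (GGAATG) in 10.4% against 13.6% and FOXA sites (TGTTTAC) in 2.32% against 3.01%. The HNF4A and CEBP motifs were rare in either set: HNF4A (CAAAGTCCA) in 0.324% against 0.451% and CEBP (TTGCGCAA) in 0.349% against 0.221%. The CTCF core was in 0.0872% against 0.0470%. The letters GGGCGG and CCGGAAG are themselves rich in G and C, so a CG-rich window holds them more often. Those of NRF1, the CRE and the E-box contain CG, while TATAAA has no G or C. Among member promoters the TATA box was in 11.4% with a CG ratio under 0.2, 7.99% from 0.2 to 0.6 and 4.97% from 0.6 up. The part of base composition in these differences was not tested. A match is a run of letters and does not show that the factor was bound.

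Among the member promoters, CCAAT and GC boxes were more frequent where the peak score was higher. Members were divided by their median score percentile into 5 classes from lowest to highest, the fifth being the top 10% (2008, 2007, 2007, 1205 and 803 promoters). CCAAT was in 28.6%, 35.6%, 45.7%, 53.8% and 62.1% of them, in that order. The GC box was in 64.0%, 70.7%, 71.7%, 77.6% and 83.6%. The TATA box went the other way, from 7.17% in the lowest class to 2.49% in the highest, as did NRF1, from 5.73% to 1.87%. ETS cores were most frequent in the middle class (25.4%) and were in 18.4% of the lowest and 19.1% of the highest class. The median GC content moved from 61.3% to 64%, so base composition shifted in the same direction as the GC box. The CG ratio stayed between 0.789 and 0.817. The CCAAT boxes were concentrated 120 to 40 bases before the start in all 3 sets compared: 23.6% of member promoters held one there, against 19.0% of all promoters, and that window, 27.4% of the positions, held 43.0% of the matches in member promoters, 40.2% over all and 37.0% at starts in no region. TATA boxes 40 to 20 bases before the start were in 0.909% of member promoters, 3.02% of all and 5.18% of those in no region.

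**Figure D4:**
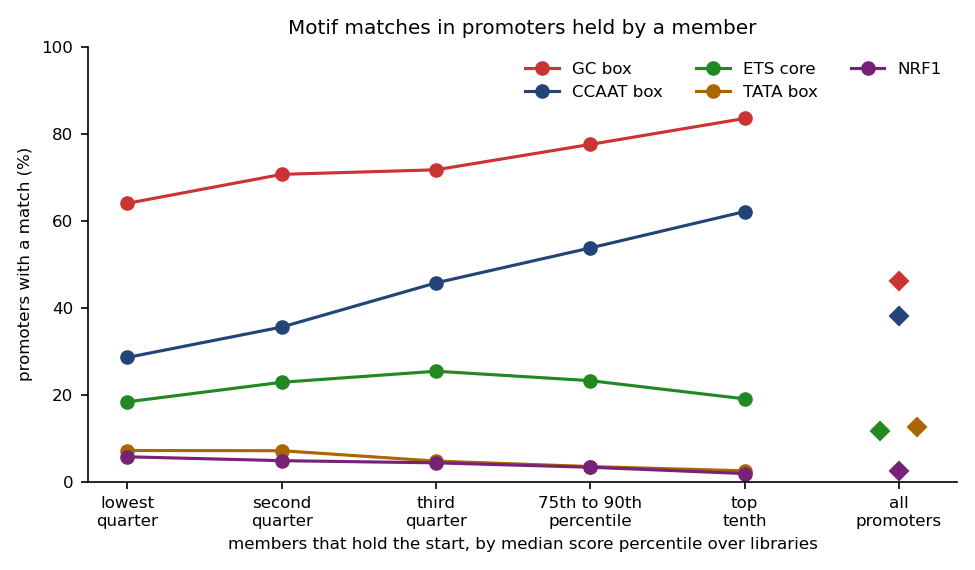
Percent of promoters with a match to each motif among promoters held by a member, in 5 classes of the member's median score percentile (circles joined by lines), with the share over all 21263 promoters as diamonds at the right. The CCAAT line climbs from 28.6% to 62.1% and the TATA box line declines from 7.17% to 2.49%.

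Genes with a member were read in nearly every RNA library. Of the 8621 genes, 8480 (98.4%) matched the RNA table. At E17.5, 7737 of them (91.2%) had reads in all 8 libraries, against 64.5% of genes whose start lay in a region of 12 to 21 libraries, 25.2% of those in 1 to 11 and 10.6% of those in none. No read at all was found for 75 (0.884%), against 64.0% of genes with no region. The median member gene was read in 59.1% of the 350 cells, and the medians of the other 3 classes were 23.4%, 1.14% and 0%. In the 10 cultures 91.2% had reads in every library, against 64.4%, 22.0% and 8.58%, and the median member gene was read in 80.6% of the 211 cells. Reads per library were 6851744 to 62144822 over the 70 libraries of the fits, from 14 to 71 cells each. Levels of different genes are not compared, because transcript lengths were not used here.

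The libraries carried the RNA of hepatocytes, with low levels of markers of other cells. Alb, Afp and the liver regulator Hnf4a had reads in every library. Summed CPM (reads of a gene per 1e6 reads of its library, scaled by TMM) over the 25 plasma protein genes was 234880 to 643706 at E17.5 and 15644 to 91650 in culture. Over the 16 erythroid markers it was 35.6 to 277 and 16.04 to 748, the last in Pard3HMKO control replicate 1. It was 28.1 to 74.5 and 10.4 to 69.0 over 19 macrophage markers, and 15.4 to 52.7 and 9.75 to 33.2 over 16 endothelial markers. Over 12 cholangiocyte markers, of which 2 had no read at E17.5 and 1 in culture, it was 34.7 to 49.4 and 79.3 to 327. The sum over 15 stellate and fibroblast markers was 46.6 to 133 and 9.61 to 69.7. Neuron markers reached 24.8 and muscle markers 172, the latter in Pard3HMKO PD replicate 2. The leukocyte gene Ptprc, the endothelial gene Kdr and Spi1 were at 0 in some E17.5 libraries. In summed libraries, fewer cells of a type and less RNA per cell cannot be told apart.

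The targeted genes were not called different between the libraries as labelled in the main fit, though only Pard3 at E17.5 overlapped between the groups. Pard3 had 25.9 and 36.4 CPM in the libraries labelled Pard3HMKO at E17.5 and 16.6 and 27.5 in Pard3WT (log2 fold change 0.50 ± 0.22 SE, adjusted p = 0.127 by edgeR's quasi-likelihood test with Benjamini-Hochberg adjustment; 0.0173 to 0.782 over the alternatives). In culture it had 65.0 and 56.7 CPM against 100.0 and 72.1 (-0.50 ± 0.20, edgeR adjusted p = 0.188). Yap1 had 44.7 and 44.3 CPM in the libraries labelled YapHMKO and 26.4 and 29.8 in YapWT (0.67 ± 0.47, edgeR adjusted p = 0.432; 0.0171 to 0.727 over the alternatives). Counts are over the whole gene, and the labels do not give the deleted exons, so reads outside them would remain and these values check nothing. Directions below are between libraries as labelled.

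At E17.5, among genes with a member, the libraries labelled Pard3HMKO had more RNA of S-phase genes and less of respiratory chain, ribosomal and plasma protein genes than Pard3WT. Of 8348 member genes tested, 879 (10.5%) were higher and 979 (11.7%) lower, against a background of 7.1% and 7.87% of all 18572 genes tested, with a median log2 fold change of 0.03 against 0. In either direction 22.3% of member genes were called, against 18.3% of genes in regions of 12 to 21 libraries, 7.52% of genes with no region and 15% of all genes. Matched protein-coding genes, the kind that members and breadth classes count, were 14579 of the 18572 tested. The share of all genes, here and below, thus mixes in other genes and is not one of protein-coding genes alone. The classes also differ in how often their genes were read. Of the member genes 91.2% had reads in all 8 libraries, against 64.5% in regions of 12 to 21 libraries and 10.6% with no region. The part of this in the shares called, here and below, was not tested. Leaving out Pard3HMKO replicate 2 gave 485 higher and 595 lower, and leaving out Pard3WT replicate 2 gave 516 and 620. The 15 stellate and fibroblast markers summed to 113 and 117 CPM in the libraries labelled Pard3HMKO and 46.6 and 53.6 in Pard3WT, and the neuron markers to 2.71 and 2.16 against 0.0853 and 0.714. Their part in the result was not tested.

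Steap1, a metalloreductase gene, had 15.8 and 12.6 CPM in the libraries labelled Pard3HMKO against 0.768 and 0.428 (log2 4.59 ± 0.77, edgeR adjusted p = 4.72e-05). Fam111a, a protease that acts at replication forks, had 11.8 and 17.6 against 1.54 and 0.5996 (3.81 ± 0.82, edgeR adjusted p = 0.00115), a call lost without Pard3WT replicate 2 (edgeR adjusted p = 0.0531). H2-T22, a non-classical class I MHC gene with near-identical relatives that make its count uncertain, had 22.5 and 21.8 against 1.15 and 1.97 (3.804 ± 0.33, edgeR adjusted p = 3.86e-10). The libraries of both groups did not overlap in these genes by the rule that named them. Egr2, an immediate-early factor, had 3.14 and 1.44 CPM against 32.7 and 25.2 (-3.64 ± 0.66, edgeR adjusted p = 0.000235), and Ankrd37 10.9 and 12.8 against 97.4 and 98.8 (-3.04 ± 0.51, edgeR adjusted p = 6.22e-05).

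By list, 13 of 22 S-phase genes with a member rose and 0 fell (median log2 1.27). Mcm3 had 33.7 and 29.9 CPM against 4.91 and 2.37, and Lig1 32.9 and 38.8 against 17.2 and 8.37. Without Pard3WT replicate 2 the count that rose was 3, and under the other alternatives it was 6 to 15. Of 22 mitosis genes 2 rose and 0 fell (median 1.21), with 4 to 19 by the other tools and settings and 0 to 3 when 1 library was left out. Respiratory chain genes fell in 27 of 29 cases (median -0.64, 17 to 28 under the other alternatives): Uqcrq, a complex III subunit, had 677 and 631 CPM against 1063 and 1071 (-0.70 ± 0.08, edgeR adjusted p = 1.01e-07). Ribosomal protein genes, whose many processed pseudogenes make counts uncertain, fell in 38 of 61 cases and rose in 2 (median -0.38), with 15 to 36 falling when 1 library was left out the lowest without Pard3WT replicate 2, and 10 to 44 under the other alternatives. Of 21 splicing genes 10 rose and 0 fell (median 0.33), with 6 to 7 left without 1 library and 4 to 10 under the other alternatives.

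Liver genes with a member mostly fell in the libraries labelled Pard3HMKO at E17.5. That was 7 of 8 plasma protein genes (median -0.97), 6 of 6 complement and coagulation genes (-1.27), 3 of 4 cytochromes P450 (1 without Pard3HMKO replicate 2) and 7 of 10 gluconeogenesis and urea cycle genes (-0.85). Apoa2, an HDL apolipoprotein, had 17501 and 15262 CPM against 26819 and 28228 (-0.74 ± 0.08, edgeR adjusted p = 2.48e-08), and Pcx 85.8 and 73.6 against 164 and 190. Glud1, glutamate dehydrogenase, went the other way with 1303 and 1430 against 778.0 and 760 CPM (0.83 ± 0.09). Of the 12 core hepatocyte factors 3 were up, but 0 without Pard3HMKO replicate 2, and 5 were down, but 3 without Pard3HMKO replicate 1: Hnf4a had 95.2 and 111 CPM against 65.4 and 76.4 (0.54 ± 0.12, edgeR adjusted p = 0.000912), while Ppara (log2 -1.34) and Xbp1 (-0.94) fell. Of 15 immediate-early genes tested 8 fell and 0 rose (median -1.44), 5 to 6 with 1 library left out. Junb had 85.0 and 89.6 CPM against 220 and 231, Fos 91.5 and 78.0 against 201 and 175 and Dusp1 63.2 and 42.9 against 201 and 202. Among ERK feedback genes Etv5, an ETS factor, rose from 0.384 and 0.799 to 3.33 and 7.43 CPM (3.13 ± 0.50, edgeR adjusted p = 1.67e-05) and Dusp6, an ERK phosphatase, fell from 83.5 and 87.0 to 39.0 and 38.3.

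The libraries labelled YapHMKO at E17.5 had more RNA of S-phase genes and less of ribosomal, respiratory chain and liver genes than YapWT, which are other libraries of the Foxa3-Cre genotype. Member genes were higher in 841 of 8348 cases (10.1%) and lower in 930 (11.1%), against a background of 6.68% and 7.7%, with a median of 0.02 against 0 over all genes. In either direction 21.2% were called, against 17.7% of genes in regions of 12 to 21 libraries, 7.35% of genes with no region and 14.4% of all. With 1 library left out the counts were 476 to 543 higher and 569 to 677 lower, the lowest without YapWT replicate 1 and YapHMKO replicate 2. The stellate and fibroblast markers summed to 127 and 133 CPM against 96.0 and 72.9, and the macrophage markers to 61.9 and 74.5 against 58.2 and 41.4. Their part in the result was not tested. Clspn, claspin of the replication checkpoint, had 12.0 and 9.60 CPM against 0.182 and 0.540 (4.87 ± 0.77, edgeR adjusted p = 2.01e-05), and Ccne1 53.6 and 34.2 against 3.34 and 3.91 (3.60 ± 0.62, edgeR adjusted p = 0.000176). Neil3, a DNA glycosylase, had 16.9 and 14.0 against 1.397 and 1.05 (3.66 ± 1.19, edgeR adjusted p = 0.0391), but the call was lost without any 1 of the 4 libraries (edgeR adjusted p = 0.0939 to 0.247).

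On the lower side, the ephrin gene Efna1 had 38.5 and 30.2 CPM against 250 and 236 (-2.82 ± 0.36, edgeR adjusted p = 2.42e-06) and Txnip, a thioredoxin inhibitor, 53.9 and 40.3 against 263 and 284 (-2.54 ± 0.29, edgeR adjusted p = 2.2e-07). S-phase genes rose in 17 of 22 cases and fell in 0 (median 1.74, 7 to 11 with 1 library left out, lowest without YapHMKO replicate 1), and mitosis genes in 6 of 22 (1.80, 1 to 3 with 1 library left out and 12 to 21 under the other alternatives). Lig1 had 57.7 and 40.1 CPM against 7.26 and 9.89, and Ccna2 21.5 and 25.5 against 6.16 and 7.35. Ribosomal protein genes fell in 47 of 61 cases (median -0.45, 33 to 39 with 1 library left out) and respiratory chain genes in 25 of 29 (-0.53). Plasma protein genes fell in 7 of 8 cases, complement and coagulation genes in 6 of 6 and gluconeogenesis and urea cycle genes in 8 of 10. Immediate-early genes were split, with 2 up and 3 down of 15, of which 0 to 1 and 0 to 3 were left without 1 library. Proteasome genes fell in 7 of 31 cases (median -0.11) and rose in 0, with 1 to 4 left without 1 library and 4 to 9 under the other alternatives.

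The 5 cultures share libraries between their comparisons: PD, TPPB and the libraries labelled Pard3HMKO are all set against the same 2 Pard3WT control libraries, so their values stand side by side and no overlap between them is read. In Pard3WT cultures, PD went with more RNA of respiratory chain and gluconeogenesis genes and less of immediate-early, ERK feedback and S-phase genes. Member genes were higher in 881 of 8290 cases (10.6%) and lower in 706 (8.52%), against a background of 8.01% and 6.73% of 16715 genes, with a median of -0.06 against -0.03. In either direction 19.1% were called, as were 19.1% of genes in regions of 12 to 21 libraries and 14.7% of all. Of the 16715 genes tested in culture, 13686 were matched protein-coding genes. With 1 library left out the counts were 540 to 630 higher, the lowest without control replicate 2, and 307 to 475 lower, the lowest without PD replicate 1. Cholangiocyte markers summed to 79.6 and 79.3 CPM with PD against 181 and 127 in control, macrophage markers to 10.4 and 15.7 against 68.4 and 63.8, endothelial markers to 17.4 and 9.75 against 32.4 and 33.2, and erythroid markers to 87.3 and 125 against 25.1 and 19.6. Their part in the result was not tested.

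The ERK feedback genes gave some of the lowest values. Of 8 tested 6 fell (median -5.66, or -4.94 with Dusp4, listed at 0 reads with PD, set to its bound of at least 10.6-fold lower). Etv5 had 0.102 and 0 CPM with PD against 22.7 and 12.8 (-8.18 ± 1.14, edgeR adjusted p = 2.51e-05), and its relative Etv4 0.205 and 0.108 against 4.61 and 4.07. Phlda1 had 0.921 and 0.433 against 62.8 and 71.8 (-6.63 ± 0.69, edgeR adjusted p = 3.53e-06). The phosphatases Dusp6 and Dusp5 had 0.819 and 0.975 against 33.6 and 29.0, and 1.23 and 4.01 against 42.5 and 37.9. Immediate-early genes fell in 9 of 16 cases and rose in 1 (median -1.56): Egr1 had 6.45 and 6.83 CPM against 527 and 326, Junb 31.2 and 23.7 against 282.4 and 229 and Fos 13.8 and 31.5 against 120 and 87.1. Egr2 had 0 reads with PD and 13.3 and 3.81 CPM in the controls, at least 59.6-fold lower when 3 reads over the group are taken as the floor. Jun was the 1 that rose, 351 and 398 against 264 and 135 CPM (0.88 ± 0.28, edgeR adjusted p = 0.0408), and 0 to 1 such calls were left without 1 library and under the other alternatives, with 0 when only the compared libraries were fitted.

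All 29 respiratory chain genes with a member rose with PD in Pard3WT cultures (median 1.10, 28 to 29 with 1 library left out). Cox8a, a subunit of cytochrome oxidase, had 838 and 808 CPM against 394 and 302, Uqcrq 1205 and 1060 against 644 and 659 and the complex I subunit Ndufv1 157 and 150 against 64.2 and 74.995. Gluconeogenesis and urea cycle genes rose in 7 of 10 cases and fell in 1 (median 1.42): Mdh1 had 799 and 752 CPM against 178 and 144 (2.24 ± 0.18, edgeR adjusted p = 1.67e-08), Pcx 136 and 116 against 40.5 and 46.1, and Glud1, the 1 that fell, 521 and 491 against 1481 and 1421. Plasma protein genes rose in 4 of 8 cases, and in 2 without any 1 library, Apoa2 with 25661 and 25116 CPM against 10982 and 8630, while the complement and coagulation genes were split, Vtn up by 1.64 and Fgb down with a log2 fold change of -1.88. S-phase genes fell in 7 of 22 cases (median -1.37, 3 to 8 with 1 library left out, the lowest without PD replicate 2, and 6 to 13 under the other alternatives): Mcm3 had 13.51 and 6.39 CPM against 51.9 and 63.9. In mitosis 1 of 22 fell, the kinetochore gene Ndc80 with 1.23 and 0 CPM against 8.25 and 23.0, at a list median of -2.35 (0 to 1 with 1 library left out, 2 to 19 under the other alternatives). Splicing genes fell in 9 of 21 cases (median -0.50), but in 0 without control replicate 2 and in 4 to 10 under the other alternatives. Ribosomal protein genes fell in 13 of 61 (median -0.24), with 7 to 10 left without 1 library, the lowest without PD replicate 1, and 6 to 16 under the other alternatives. In cell architecture, the E-cadherin gene Cdh1 had 26.2 and 26.2 CPM against 140 and 87.6, and Tjp3 39.6 and 62.7 against 4.88 and 1.53. These genes were chosen after their values were seen, moved in opposite directions and do not stand for other junction genes. Xbp1, a core hepatocyte factor that also acts in the unfolded protein response, had 53.5 and 44.4 against 244 and 344. The sum over all 25 core hepatocyte factors, with or without a member, went the other way. It was 4701 and 4538 CPM with PD against 2912 and 3096 in control.

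The largest single changes with PD in Pard3WT cultures included genes near the detection limit. Dnaic1, which encodes a chain of axonemal dynein, had 0 and 0.650 CPM against 47.3 and 82.4 (-7.66 ± 0.97, edgeR adjusted p = 8.39e-06). Nucb2, the precursor of nesfatin, had no read with PD against 17.6 and 10.4 CPM, at least 92.6-fold lower (edgeR adjusted p = 0.000337). The higher genes rested on uneven libraries: Tbc1d4, a Rab GTPase-activating protein, had 1.33 and 30.7 CPM against no read (at least 99.4-fold higher, edgeR adjusted p = 0.0256), Coro6, a coronin, 29.6 and 2.71 against 0.177 and 0 (edgeR adjusted p = 0.0166), and Prob1 19.54 and 5.31 against 0 and 0.254 (edgeR adjusted p = 0.049). The Tbc1d4 call was lost without PD replicate 2 or either control (p up to 0.262), that of Coro6 without PD replicate 1 or either control (up to 0.225) and that of Prob1 without any 1 of the 4 libraries (0.0707 to 0.291).

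**Figure D5:**
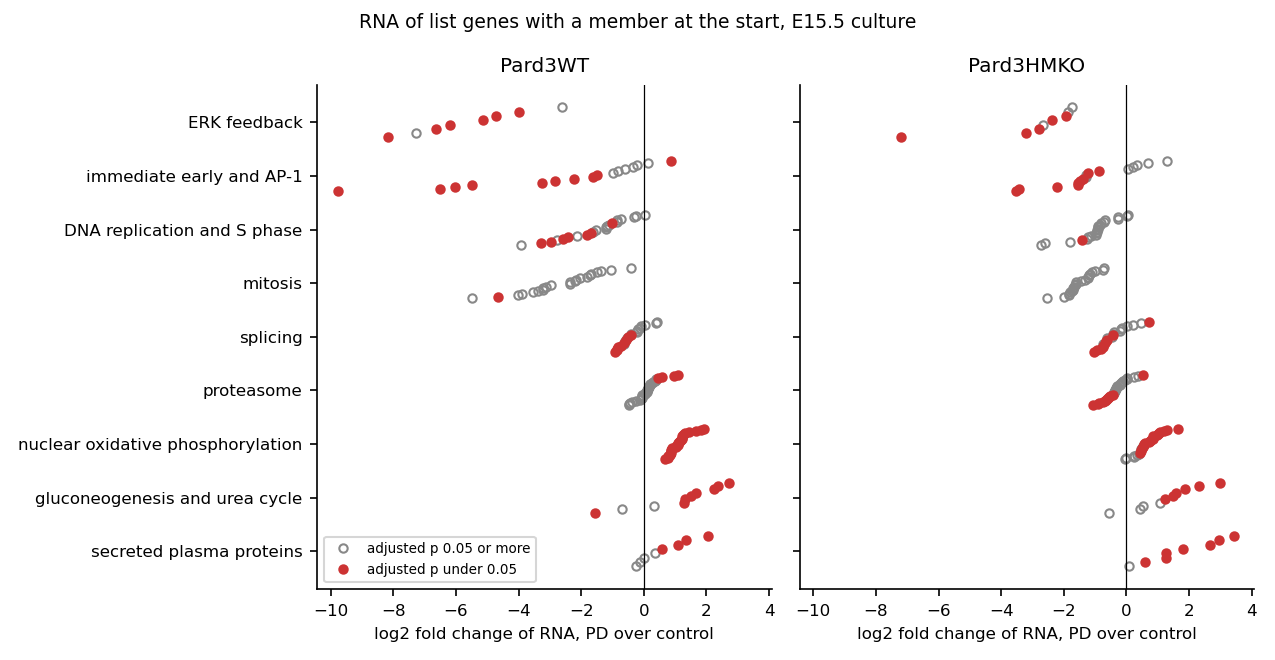
Log2 fold change of RNA with PD over control in E15.5 cultures, for each list gene with a member at the start (1 point per gene), in Pard3WT (left) and in the libraries labelled Pard3HMKO (right); filled red points passed an adjusted p of 0.05 in edgeR's test. The respiratory chain genes lie to the right of 0 in Pard3WT, where 29 of 29 passed, and the ERK feedback genes to the left, where 6 of 8 passed.

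With TPPB in Pard3WT cultures more member genes were called lower than higher, and plasma protein, complement and coagulation genes were among the lower ones. Member genes were higher in 158 of 8290 cases (1.91%) and lower in 495 (5.97%), against a background of 1.45% and 5.37%, with a median of 0.03 against 0. In either direction 7.88% were called, against 11.2% of genes in regions of 12 to 21 libraries and 6.82% of all. It was 7.47% in regions of 1 to 11 libraries and 4.30% with no region. Because all genes include others than protein-coding ones, no excess of members is read. The counts were 62 to 103 higher and 283 to 387 lower with 1 library left out, the lowest without TPPB replicate 2 and TPPB replicate 1. Cholangiocyte markers summed to 246.9 and 327 CPM with TPPB against 181 and 127, and neuron markers to 24.8 and 20.3 against 8.60 and 1.78. Endothelial markers summed to 14.2 and 10.4 against 32.4 and 33.2, and stellate and fibroblast markers to 13.4 and 11.8 against 27.5 and 16.9. Their part in the result was not tested. All 8 plasma protein genes (median -2.21) and all 6 complement and coagulation genes (-2.52) with a member fell. Apoa2 had 502 and 248 CPM against 10982 and 8630 (-4.76 ± 0.34, edgeR adjusted p = 8.87e-08), and Vtn, vitronectin, 38.4 and 30.0 against 487 and 338. Pcx had 7.88 and 6.11 against 40.5 and 46.1. Only 1 of the core hepatocyte factors, Ppara, fell (-3.56). Of the Hippo genes 2 of 16 rose (1 without TPPB replicate 2) and 0 fell: Amotl2, an angiomotin, had 105 and 138 CPM against 20.8 and 45.9, and the transcription factor gene Tead1 97.7 and 107 against 36.4 and 33.4.

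Single genes moved strongly with TPPB. Dnaic1 had 0.209 and 0.122 CPM against 47.3 and 82.4 (-8.59 ± 1.01, edgeR adjusted p = 3.84e-06), Abcd2, a peroxisomal fatty acid transporter, 0.140 and 0.367 against 11.8 and 16.8 (-5.79 ± 0.82, edgeR adjusted p = 4.57e-05) and Slc17a2, a phosphate transporter, 0.279 and 0.122 against 11.4 and 10.7 (-5.78 ± 0.86, edgeR adjusted p = 9.18e-05). Tnfrsf23 and its close neighbour Tnfrsf22, TRAIL decoy receptors whose similarity makes their counts uncertain, had 36.1 and 59.8 against 1.68 and 0.254 CPM (edgeR adjusted p = 0.000422) and 23.4 and 51.0 against 0 and 2.92 (edgeR adjusted p = 0.00959). The Tnfrsf22 call was lost without TPPB replicate 2 or control replicate 1 and with only the compared libraries in the fit (p up to 0.123). The ephrin receptor gene Epha4 had 9.84 and 13.9 CPM against no read, at least 76.5-fold higher (edgeR adjusted p = 0.0118), lost without either control (p up to 0.134). Etv4 rose to 28.8 and 30.9 CPM (2.73 ± 0.43, edgeR adjusted p = 0.000207) and Klf6, an immediate-early factor, had 507 and 859 against 253 and 210.

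Between control cultures, the libraries labelled Pard3HMKO had fewer calls. Member genes were higher in 185 of 8290 cases (2.23%) and lower in 290 (3.50%), against a background of 1.57% and 3.4%, with a median of 0.05 against 0.01. In either direction 5.73% were called, against 8.69% of genes in regions of 12 to 21 libraries and 4.97% of all. It was 4.72% in regions of 1 to 11 libraries and 3.33% with no region, and again no excess of members is read. With 1 library left out, 39 to 111 were higher and 121 to 228 lower, the lowest without Pard3HMKO replicate 2. Erythroid markers summed to 748 CPM in Pard3HMKO replicate 1 and to 142 or less in the other cultures. Endothelial markers summed to 17.46 and 27.49 CPM in Pard3HMKO against 32.37 and 33.18, and macrophage markers to 63.3 and 55.3 against 68.4 and 63.8. Their part in the result was not tested. Plasma protein genes fell in 7 of 8 cases (median -1.58) and complement and coagulation genes in 6 of 6 (-1.80), Apoa2 with 1359 and 1260 CPM against 10982 and 8630 (-2.91 ± 0.31, edgeR adjusted p = 3.42e-05). The core hepatocyte factors fell in 4 of 12 cases (-0.76, 1 to 3 with 1 library left out, the lowest without Pard3HMKO replicate 1, and 0 to 5 under the other alternatives). Proteasome genes rose in 7 of 31 cases and fell in 0 (median 0.37), with 1 to 4 left without 1 library, the lowest without Pard3HMKO replicate 1, and 0 to 8 under the other alternatives. The Hippo genes called were again Amotl2 and Tead1, but 0 to 1 of these 2 calls were left without 1 library, and 0 with only the compared libraries in the fit.

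Among single genes in that comparison, Dnaic1 had 4.18 and 1.08 CPM against 47.3 and 82.4 (-4.63 ± 0.78, edgeR adjusted p = 0.000754) and Slc17a2 0.413 and 0.942 against 11.4 and 10.7 (-3.9996 ± 0.75, edgeR adjusted p = 0.00201; 0.0545 without Pard3HMKO replicate 1). Aldoc, aldolase C, had 1.60 and 0.706 against 17.2 and 7.4995 (-3.42 ± 0.90, edgeR adjusted p = 0.0276). Tnfrsf23 had 28.8 and 53.9 CPM against 1.68 and 0.254 (edgeR adjusted p = 0.00104), Tnfrsf22 21.3 and 25.6 against 0 and 2.92 (edgeR adjusted p = 0.0313) and Car13, a carbonic anhydrase, 17.2 and 28.7 against 0.355 and 1.27 (edgeR adjusted p = 0.00907). The calls of Aldoc and Tnfrsf22 were lost without either Pard3HMKO library or Pard3WT replicate 1, and with only the compared libraries in the fit (p up to 0.308 and 0.193), and that of Car13 without Pard3HMKO replicate 2 or Pard3WT replicate 1 (up to 0.163).

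In the cultures labelled Pard3HMKO, PD went with more RNA of respiratory chain, plasma protein and gluconeogenesis and urea cycle genes. Member genes were higher in 908 of 8290 cases (10.95%) and lower in 658 (7.94%), against a background of 9% and 5.43%, with a median of -0.05 against 0. In either direction 18.9% were called, against 18.5% of genes in regions of 12 to 21 libraries and 14.4% of all. With 1 library left out the counts were 526 to 672 higher, the lowest without control replicate 2, and 206 to 429 lower, the lowest without PD replicate 2. Cholangiocyte markers summed to 97.7 and 124 CPM with PD against 180 and 166, and neuron markers to 3.46 and 0.830 against 4.24 and 11.4. Heart and skeletal muscle markers summed to 0.774 and 172 CPM with PD, the latter in replicate 2, against 1.45 and 1.69. Erythroid markers summed to 142 and 32.5 against 748 and 21.7. Their part in the result was not tested. The peroxisomal enzyme genes Ehhadh, with 2406 and 2880 CPM against 20.25 and 20.9 (7.00 ± 0.35, edgeR adjusted p = 4.97e-10), and Acaa1b, with 927 and 1080 against 13.48 and 8.95 (6.48 ± 0.32, edgeR adjusted p = 2.04e-10), both rose. Acaa1b has a close copy, so its count is uncertain. Inhbe, an activin subunit made in liver, had 202 and 201 CPM against 3.203 and 1.93 (6.29 ± 0.55, edgeR adjusted p = 5.65e-07). Ppara, the regulator of fatty acid oxidation, rose by 3.23 ± 0.50 on the log2 scale (edgeR adjusted p = 8.49e-05).

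On the lower side, the transcription factor gene Runx1 had 1.81 and 0.747 CPM against 27.0 and 35.0 (-4.57 ± 0.84, edgeR adjusted p = 0.000648). Rassf10 had 1.03 and 0.249 against 77.9 and 77.8 (edgeR adjusted p = 0.0076) and the phosphatase gene Dusp4 0.206 and 0.166 against 5.27 and 53.2 (edgeR adjusted p = 0.0052), and both calls were lost without either PD library (p up to 0.11 and 0.0817). Respiratory chain genes rose in 21 of 29 cases (median 0.57, 13 to 18 with 1 library left out the lowest without control replicate 2, and 14 to 23 under the other alternatives), plasma protein genes in 7 of 8 (1.53) and gluconeogenesis and urea cycle genes in 6 of 10 (1.36). Apoa2 had 13791 and 14517 CPM against 1359 and 1260 and Hnf4a 236 and 249 against 115 and 102. ERK feedback genes fell in 5 of 8 cases (median -2.53, 2 to 4 with 1 library left out) and immediate-early genes in 9 of 16 (-1.28, 3 to 8, the lowest without PD replicate 2): Dusp5 had 12.4 and 6.88 CPM against 61.7 and 117, Phlda1 32.7 and 23.7 against 117 and 176 and Junb 127 and 167 against 232 and 305. Proteasome genes fell in 11 of 31 cases (median -0.36, 3 to 8 with 1 library left out), splicing genes in 9 of 21 (-0.46, 1 to 6) and ribosomal protein genes in 11 of 61 (-0.08, 3 to 5), each count lowest without PD replicate 2. Under the other alternatives they were 7 to 12, 5 to 9 and 2 to 15. Of the S-phase genes only Orc6 of the origin recognition complex fell, 25.9 and 18.6 against 53.5 and 64.2 CPM (-1.41 ± 0.36, edgeR adjusted p = 0.00921), at a list median of -0.92 (0 to 1 with 1 library left out, 4 to 8 under the other alternatives).

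The difference between the PD effects in both genotypes was tested directly. It was higher in the libraries labelled Pard3HMKO for 52 member genes (0.627%) and lower for 27 (0.326%), against a background of 0.646% and 0.191%, and the median over members was 0.03 against 0.10 over all genes. Calls in either direction covered 0.953% of member genes, 1.71% of genes in regions of 12 to 21 libraries and 0.838% of all. The share was 0.589% in regions of 1 to 11 libraries and 0.296% with no region, and no excess of members is read. With 1 library left out, 12 to 31 and 4 to 18 genes were called, the lowest without Pard3WT PD replicate 2 and Pard3HMKO PD replicate 2. Of the ERK feedback genes, Etv5 had 7.59 and 7.30 CPM with PD and 27.1 and 22.9 in control for Pard3HMKO, against 0.102 and 0 and 22.7 and 12.8 for Pard3WT (difference 6.43 ± 1.37, edgeR adjusted p = 0.0252). The call held without Pard3WT control replicate 2 and was lost without any other library (p up to 0.179). Phlda1 differed by 4.25 ± 0.83 (edgeR adjusted p = 0.0225). Of these 2 calls 0 to 1 were left without 1 library. Of the immediate-early genes, Egr1 had 207 and 102 CPM with PD and 221 and 524 in control for Pard3HMKO (difference 4.75 ± 0.90, edgeR adjusted p = 0.0238), and Junb differed by 2.37 ± 0.38 (edgeR adjusted p = 0.00285) and Egr2 as well (edgeR adjusted p = 0.032), with 1 to 3 of the 3 left without 1 library. Fgb and Fgg of fibrinogen differed by 2.31 ± 0.41 and 1.92 ± 0.37, Glud1 by 2.08 ± 0.35 and Cdh1, at 64.2 and 84.1 CPM with PD against 63.3 and 40.3, by 2.66 ± 0.50. With 1 library left out, the complement and coagulation list had 1 to 3 such calls against 3, and the lists of Glud1 and of Cdh1 had 0 to 1 each against 1, with 0 among others without Pard3WT PD replicate 2 for Glud1 and without Pard3HMKO control replicate 2 for Cdh1.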

How the data were processed

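The members and the gene lists were chosen with earlier results of these data known. The submitters' processing notes name, without an order, MACS 1.4.2, Bowtie2 2.2.5, Trimmomatic 0.38, HOMER, FastQC and SAMtools 1.3.1 with build mm10 for ATAC-seq, and HISAT2 2.1.0, Trimmomatic 0.39 and FastQC 0.11.9 with GRCm38/mm10 for RNA. The authors deposited 1 peak list per ATAC library with a score for each peak, whose scale the files do not name, and tables of read counts per gene and cell (Smart-seq3xpress). The counter of these counts is not given in the sources used here.

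From the peak lists, all peaks were merged and the regions with a peak in all 22 lists kept, with starts within 1 kb. Starts came with strand from the RefSeq promoter table for 17492 protein-coding genes, and for the other 4395 either end of the gene span was used. Deposited counts were summed over the cells of each RNA library, spike-ins left out (40824 genes). 2547 cell columns were used and 1717 were not used. The 44 in vivo and the 26 culture libraries were fitted separately with edgeR 4.0.16 (TMM, filterByExpr, robust quasi-likelihood fit, Benjamini-Hochberg over all genes tested, threshold 0.05) in R 4.3.3 with limma 3.58.1, after a check on simulated counts. DESeq2 1.42.0, no filter, only the libraries compared, a replicate block, the start base itself and each library left out were the alternatives. Python 3.11.15, pandas 2.3.3, NumPy 2.4.6, SciPy 1.17.1 and Matplotlib 3.10.9 did the rest. CPM are TMM-scaled. SE is an approximate standard error of the log2 fold change, its absolute value divided by the square root of the test's F statistic. It was not estimated apart from the test. Peaks per ATAC library were 24270 to 45898, and the read depth behind them is not known here. RNA depth was 6851744 to 62144822 reads.

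Named regions were the 10 highest-scoring members at starts, the 6 highest over 10 kb away, the 4 widest, and the highest of those in 21 libraries. Per list, up to 4 genes with the highest percentile and up to 4 without a member were eligible. Per RNA comparison, up to 3 called member genes per direction were named by size of change, if a group mean reached 10 CPM and the libraries of both sides did not overlap, besides Pard3, Yap1, Alb and Afp. Other list genes named with RNA values, and the members that ranked apart between E17.5 libraries and cultures, were chosen after their values were seen. Transcript lengths were not used here. Some items that these rules name are not reported here.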

Additional observations from a re-analysis of the deposited data

Results flagged for a closer look

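In 6 genes with a member at the start, the effect of PD differed between the genotypes by the test of the difference itself (edgeR's quasi-likelihood test with Benjamini-Hochberg adjustment, PD effect in the libraries labelled Pard3HMKO minus that in Pard3WT, log2). These were the 3 largest differences in each direction. Dnaic1, of axonemal dynein, had 11.1 and 11.53 CPM with PD and 4.18 and 1.08 in control for Pard3HMKO, against 0 and 0.650 with PD and 47.3 and 82.4 in control for Pard3WT, a difference of 9.76 ± 1.20 (adjusted p = 0.000341, at most 0.0145 over 12 alternatives). Its RNA was higher with PD in one genotype and lower in the other.

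Nucb2 had 20.9 and 3.90 CPM with PD and 24.8 and 16.4 in control for Pard3HMKO, against no read with PD and 17.6 and 10.4 in control for Pard3WT, a fitted difference of 9.75 ± 2.12 that depends on the prior count (edgeR adjusted p = 0.0307). The difference for Etv5 was 6.43 (edgeR adjusted p = 0.0252). Both calls were lost in 7 of the 8 fits that left out 1 library, Nucb2 holding without Pard3HMKO PD replicate 2 and Etv5 without Pard3WT control replicate 2 (p up to 0.183 and 0.179).

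Gpx1, glutathione peroxidase, had 308 and 363 CPM with PD and 617 and 746 in control for Pard3HMKO, against 375 and 558 with PD and 253 and 192 in control for Pard3WT, a difference of -2.07 ± 0.26 (edgeR adjusted p = 0.000344, at most 0.017 over 12 alternatives). Fas, the death receptor gene, had 66.2 and 88.4 CPM with PD and 23.2 and 36.1 in control for Pard3HMKO, against 150 and 144 and 14.9 and 10.2 for Pard3WT, a difference of -2.14 ± 0.46 (edgeR adjusted p = 0.0274). Rab32, a GTPase gene, had 18.3 and 40.8 and 72.8 and 110 CPM, against 23.4 and 32.0 and 20.6 and 18.0, a difference of -2.12 ± 0.51 (edgeR adjusted p = 0.04999). The Fas call was lost in 7 of 8 fits that left out 1 library (p up to 0.15), and that of Rab32 in 9 of 12 alternatives (p up to 0.222).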

How the results depend on the processing

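The number of members was 10574 with peaks up to 200 bases apart merged and 10554 to 10877 with 1 library left out. It was 6369 with peaks of a score of at least 100 only, and 929 when each library had to cover 50% of the region, where the share at a start was 83.8% and 84.6% and the median width 1293 and 1239 bp. The share was 71.3% with the start base inside the region, 77.5% within 5 kb, 78.0% over all annotated genes and, chosen after seeing the data, 61.3% from the strand-aware table alone (72.3% to 73.5% with 1 library left out). The median width was 1240 bp with nearby peaks merged and 1170 to 1205 bp with 1 library left out.

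Counts of member genes called higher and lower moved as follows, and the cause was not tested. The ranges with 1 library left out were 485 to 696 and 595 to 815 for the libraries labelled Pard3HMKO at E17.5, 476 to 543 and 569 to 677 for YapHMKO, 540 to 630 and 307 to 475 for PD in Pard3WT, 62 to 103 and 283 to 387 for TPPB, 39 to 111 and 121 to 228 for Pard3HMKO in culture, 526 to 672 and 206 to 429 for PD in Pard3HMKO, and 12 to 31 and 4 to 18 for the difference of the PD effects. TPPB gave 274 higher with DESeq2 and 276 with no filter, and 266 lower with only the libraries compared. Pard3HMKO in culture gave 288 and 470 with DESeq2, and 53 and 121 with only the libraries compared. The difference of the PD effects gave 134 and 94 with DESeq2 and, as alternatives chosen after seeing the data, 173 and 81 with no filter and 17 lower with only the libraries compared. No member gene called in the main fit turned direction under any of these alternatives.

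Replicate numbers are shared between groups, and the RNA libraries with the same number correlated at -0.0784 to 0.0408 in their deviations, so the numbers were not taken as pairs. The ATAC libraries, where replicate 1 had fewer peaks than replicate 2 in all 5 culture groups, were not tested for pairing. With the replicate block, member calls were 339 and 489 for Pard3HMKO at E17.5, 436 lower for PD in Pard3WT, 104 and 267 for TPPB, 24 and 67 for Pard3HMKO in culture and 6 lower for the difference of the PD effects. The other counts stayed within 1.5 times. By list, the block took Pard3HMKO at E17.5 from 38 to 10 ribosomal, 27 to 17 respiratory chain, 13 to 6 S-phase, 10 to 4 splicing and 3 to 1 core hepatocyte factor calls. It left 0 of 7 proteasome, 0 of 4 hepatocyte factor and 0 of 2 Hippo calls for Pard3HMKO in culture, and 2 of 11 ribosomal calls for PD in Pard3HMKO. Among named genes it ended the calls of Dnaic1 (edgeR adjusted p = 0.0532), Tnfrsf23 (0.0563), Slc17a2 (0.0761), Tnfrsf22 and Aldoc for Pard3HMKO in culture, of Tnfrsf22 for TPPB and of Fas for the difference of the PD effects. With 2 RNA libraries per group, calls rest on a spread shared over groups, and peaks near a score of 50 decide membership at the margin.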
